A study of Mus musculus with 4 samples.

Results

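The NF-kB subunits and feedback genes, 10 genes in all, were followed across the cells of mouse sarcomas treated with vehicle or digoxin: the 5 subunits Nfkb1, Nfkb2, Rela, Rel and Relb, the inhibitors Nfkbia, Nfkbie and Nfkbiz, the deubiquitinating enzyme gene Tnfaip3, and Icam1, which encodes an adhesion molecule. The genes were chosen by symbol, with earlier results of these data known. All 10 had a row in both deposited tables. The table of malignant cells held 17992 genes and that of non-malignant cells 16349, and 18220 genes were in either. The tumors were allografts taken from the hind limb, on the 129/SvJae background, and both groups share a genotype that includes Trp53flox/flox, alleles of the tumor suppressor gene that a recombinase can delete. Vehicle mice (n = 2) received PBS into the peritoneum, and digoxin mice (n = 2) received 2 mg/kg digoxin, a cardiac glycoside that inhibits the sodium pump. Digoxin was dissolved in DMSO before dilution in PBS, and no DMSO is named for the vehicle. Doses were given every 24 h and the tumor was taken after dose 4. Age was not given in the sources used here. The comparison asks how the RNA of these genes differed with treatment in malignant cells, in each immune and stromal cell type and in 3 macrophage sub-clusters.

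NF-kB is a family of transcription factors that bind DNA as dimers of the 5 subunits. In a resting cell the inhibitors encoded by Nfkbia and Nfkbie hold dimers in the cytoplasm, and signals from TNF, interleukin-1 or bacterial products lead to the breakdown of these inhibitors and the entry of the dimers into the nucleus. Several genes of the pathway are themselves NF-kB targets: newly made Nfkbia and Nfkbie protein captures the dimers again, the A20 protein encoded by Tnfaip3 acts on the signalling complexes upstream, and Nfkbiz encodes a nuclear member of the inhibitor family that also acts as a coactivator. The RNA of these feedback genes is therefore often read as a sign of recent pathway activity, while the nuclear entry of the subunits itself leaves no trace in RNA counts.

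Start-site windows of RefSeq (GRCm38.p6, the assembly also called mm10), each from 250 bases before to 50 bases after a start site, were found for 7 of the 10 members. They are shown because the feedback genes are known targets of NF-kB. The kB consensus was GGGRNNYYCC, 10 bases long, where R is A or G, Y is C or T and N is any base. Searched on both strands, it was present in 7 of the 10 windows of these 7 genes. The share among 32817 mouse windows of the same length was 8.459%. Nfkb2, Rel, Nfkbia, Nfkbie and Tnfaip3 held the consensus, and the windows of Rela and Icam1 did not. The Nfkb2 gene had 3 windows, of which 2 overlap and share the same GGGACTTTCC site, so that site counts in both. Tnfaip3 had 2 windows, of which the one at chr10:19011914-19012213 held no match. In the windows printed here, read 5′ to 3′ on the strand of the gene, capitals mark the consensus matches: chr12:55492598-55492897 (minus strand) for Nfkbia, chr17:45555450-45555749 (plus strand) for Nfkbie, chr11:23770920-23771219 (minus strand) for Rel and chr10:19015361-19015660 (minus strand) for Tnfaip3. The Nfkbia match GGAAATTCCC began 29 bases before the start site, and the Tnfaip3 match GGAAATCCCC began 12 bases before it. In Tnfaip3 another match, GGGACACCCC, began 125 bases before it. In Rel, 2 overlapping matches began 92 and 91 bases before the start. In Nfkbie the match GGGGGATTCC began 106 bases before it. A match describes the letters of the window only. The search covered this consensus alone, so a window without a match, such as that of Icam1, can hold sites that differ from it.
Nfkbia: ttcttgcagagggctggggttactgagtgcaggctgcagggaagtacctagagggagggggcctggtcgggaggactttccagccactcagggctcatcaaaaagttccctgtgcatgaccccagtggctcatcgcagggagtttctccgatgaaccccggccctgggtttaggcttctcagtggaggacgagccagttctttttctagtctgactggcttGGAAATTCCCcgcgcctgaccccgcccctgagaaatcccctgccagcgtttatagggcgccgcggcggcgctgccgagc
Nfkbie: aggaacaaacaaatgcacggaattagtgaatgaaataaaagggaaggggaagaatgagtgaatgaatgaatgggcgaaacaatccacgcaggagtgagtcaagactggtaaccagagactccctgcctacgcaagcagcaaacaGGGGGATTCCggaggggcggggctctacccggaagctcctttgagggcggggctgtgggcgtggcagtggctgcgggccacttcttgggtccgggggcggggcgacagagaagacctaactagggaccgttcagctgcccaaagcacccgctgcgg
Rel: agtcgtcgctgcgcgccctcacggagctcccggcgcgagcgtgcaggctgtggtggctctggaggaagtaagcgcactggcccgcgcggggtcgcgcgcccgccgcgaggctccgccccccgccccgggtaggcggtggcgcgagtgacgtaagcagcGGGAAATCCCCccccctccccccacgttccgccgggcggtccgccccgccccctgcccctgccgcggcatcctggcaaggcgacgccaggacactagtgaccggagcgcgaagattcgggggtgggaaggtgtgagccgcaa
Tnfaip3: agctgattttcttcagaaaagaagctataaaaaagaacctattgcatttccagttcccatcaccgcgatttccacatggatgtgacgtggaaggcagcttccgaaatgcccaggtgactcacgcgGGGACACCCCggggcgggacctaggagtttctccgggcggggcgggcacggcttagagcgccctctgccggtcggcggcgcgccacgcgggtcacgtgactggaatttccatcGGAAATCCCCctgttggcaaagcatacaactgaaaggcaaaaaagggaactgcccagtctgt

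Each library held between 3976 and 6269 malignant cells, with 255961531 to 350781642 unique molecular identifiers (UMIs, each a tag for a single captured RNA molecule), and non-malignant cells with 52417178 to 59626065 UMIs. Of 31498 distinct cell barcodes, 113 occurred in more than 1 library. Vehicle replicate 2 stood apart: its macrophages held Xist at 0.161 CPM against 635, 752 and 753 in vehicle replicate 1 and the digoxin mice, and Ddx3y, a gene of the Y chromosome, at 87.7 CPM against 1.74 to 2.28 in the others. Malignant cells of all 4 mice held Ddx3y at 43.1 to 49.3 CPM. When vehicle replicate 1 is left out, vehicle replicate 2 is the only control. Treatment cannot then be told apart from this host difference in Xist and Ddx3y. Where a printed log2 difference moved by over 1.5 times without vehicle replicate 2, that value is given where the gene is described. The deposited cell type names are kept here, but the fixed markers went against a pair of them: cells named Epithelial held the endothelial genes Cdh5 and Pecam1 at means of 888 and 841 CPM with Epcam at 0.122 CPM, and cells named Microglia held the plasmacytoid dendritic cell genes Siglech and Bst2 at 2449 and 3011 CPM with Tmem119 at 1.43 CPM. Malignant cells carried macrophage markers at a summed 461 to 619 CPM, far under the 21141 to 31330 CPM of the macrophages. These were 609 and 619 CPM in the vehicle mice and 461 and 476 CPM in the digoxin mice, without overlap. Neutrophil markers in malignant cells had the opposite order, at 14.2 and 13.6 CPM with vehicle and 35.4 and 23.4 CPM with digoxin, as did endothelial markers, at 18.5 and 18.2 CPM with vehicle and 20.8 and 39.3 CPM with digoxin. Fibroblast markers were lower with digoxin, at 3927 and 4178 CPM with vehicle and 3335 and 2819 CPM with digoxin, as were osteoclast markers, at 112 and 155 CPM with vehicle and 106 and 93.4 CPM with digoxin. Plasmacytoid dendritic cell markers (873 and 922 CPM against 850.1 and 796 CPM), NK markers (5.88 and 3.75 CPM against 6.13 and 6.01 CPM) and dendritic cell markers (1.61 and 1.82 CPM against 2.24 and 2.25 CPM) did not overlap either. The part of these in the malignant differences was not tested.

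Values are mean CPM, the UMIs of a gene scaled to a common total in each cell and averaged over the cells of a mouse. Differences between treatments are given as digoxin minus vehicle on the scale of log2(mean CPM + 1) with the standard error (SE), which understates the change of low genes, and tested with limma with Benjamini-Hochberg adjustment over all genes of a population. Because the mouse is the replicate, each test rests on 2 mice against 2. Fits were made in malignant cells, in the 7 deposited types with at least 20 cells in each mouse and in 3 macrophage sub-clusters, and all 10 members passed the filter on low counts in each of these 11 populations. At an adjusted p under 0.05, 1 of the 110 pairs of member and population was called: Tnfaip3 in cells named Epithelial. The shares of all genes called were 0% in malignant cells, Macrophage, M1, M2, Highly proliferative M2, T cell, Fibroblast and Microglia, 0.0765% in NK, 0.467% in Epithelial and 0.0128% in Osteoclast. edgeR, DESeq2 and limma on summed UMIs called 0 of the 110 pairs. At an unadjusted limma p under 0.05, 3 members passed in Epithelial, 2 in Osteoclast, 0 in T cell and NK, and 1 in each of the other 7 populations. The share of all genes under that p was 5.77% in Epithelial, 6.38% in Osteoclast, 4.28% in T cell, 6.28% in NK, 3.41% in malignant cells, 4.04% in Macrophage, 7.73% in M1, 2.28% in M2, 3.94% in Highly proliferative M2, 2.97% in Fibroblast and 4.78% in Microglia.

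**Figure D1:**
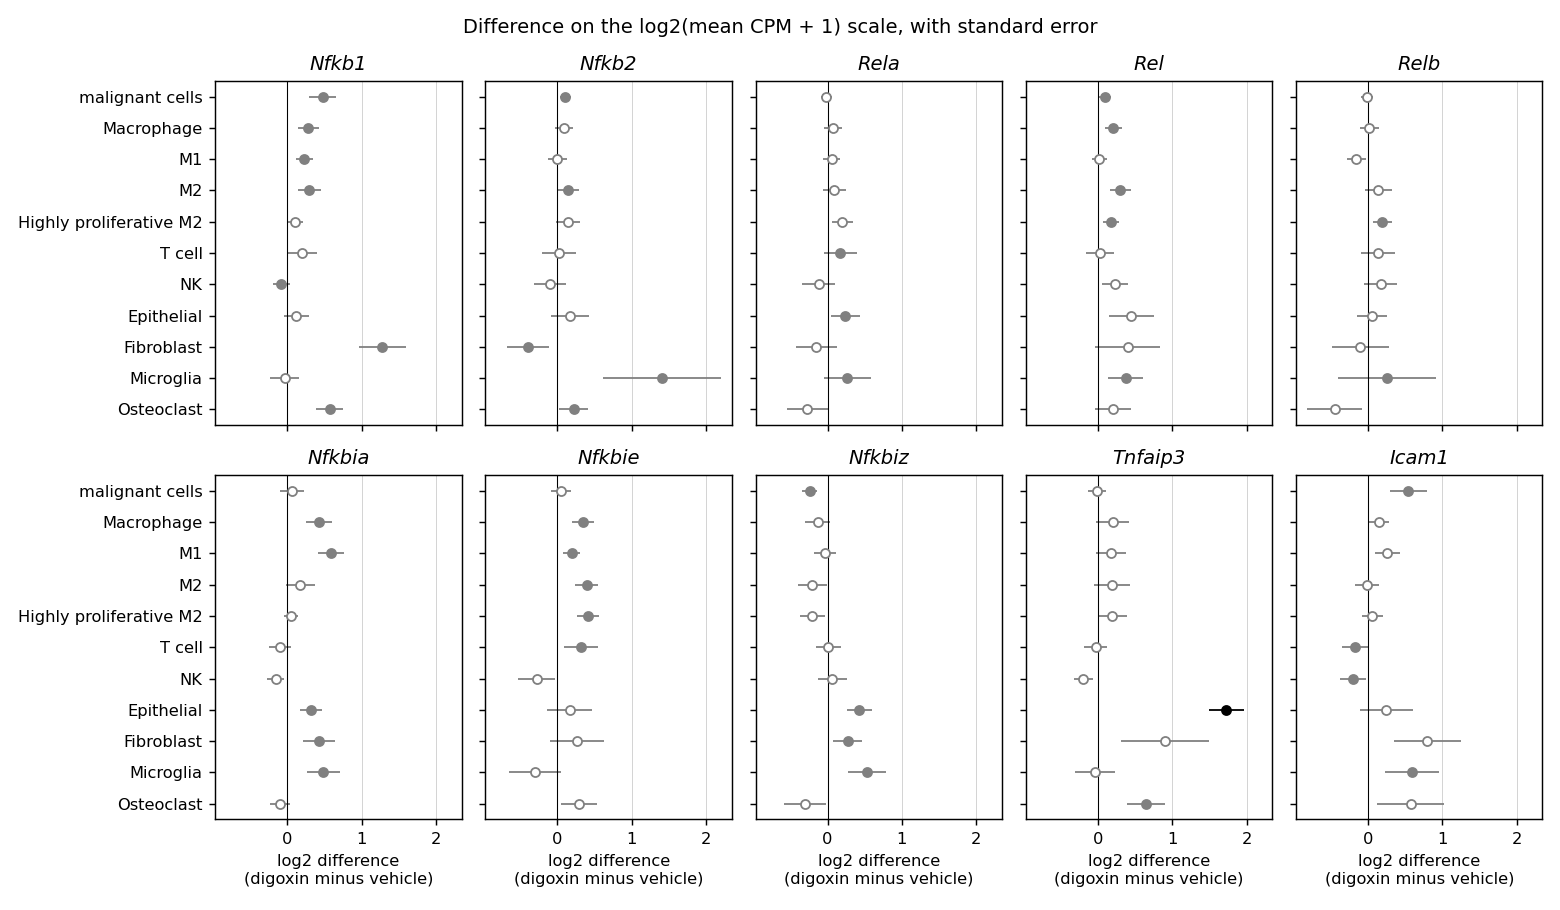
Log2 difference (digoxin minus vehicle, with SE; x axis) of each member in 11 populations (y axis). Filled circles mark pairs in which both digoxin mice lie on the same side of both vehicle mice, open circles mark overlapping groups, and black marks the 1 pair with adjusted p under 0.05 (Tnfaip3 in Epithelial, 1.73).

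Among the subunits, Nfkb1 encodes the p105 precursor of p50. Both digoxin mice lay above both vehicle mice for Nfkb1 in 6 of 11 populations, and below them in NK cells. The 6 include Macrophage and its own sub-clusters M1 and M2, which share cells. With the sub-clusters left out, 15.2% of all gene and type pairs were higher and 17.2% lower without overlap. Nfkb1 was then higher in 4 populations, lower in 1 and overlapping in 3. In malignant cells its level was 199 and 157 CPM in the vehicle mice and 209 and 290 CPM in the digoxin mice (178 ± 30.2 against 250 ± 56.7, mean ± SD, n = 2 each). The groups did not overlap, but digoxin replicate 1 lay closer to vehicle replicate 1 than to digoxin replicate 2. Digoxin minus vehicle was 0.48 (SE 0.19; limma adjusted p 0.9999), and it was 0.30 without vehicle replicate 2 and 0.24 without digoxin replicate 2. In malignant cells 4 of 10 members were higher without overlap (Nfkb1, Nfkb2, Rel and Icam1), against 12.8% of genes, and 1 was lower (Nfkbiz), against 16.5%. The median log2 difference of the members there was 0.06, beside -0.01 over all genes.

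Nfkb1 in cells named Fibroblast was 161 and 112 CPM in the vehicle mice and 243 and 442 CPM in the digoxin mice. Both digoxin values lay above both vehicle values, and this was the widest gap of the gene among the 11 populations. On the log2 scale the difference was 1.28 (SE 0.32; limma adjusted p 0.999, unadjusted p 0.00361). Without vehicle replicate 1 it was 1.54 with an adjusted p of 6.27e-06, and without vehicle replicate 2 it was 1.02 with an adjusted p of 0.257, so the outcome of the test depended on which vehicle mouse was kept. Without digoxin replicate 2 it was 0.85. These means rest on 92 to 625 UMIs of the gene in a mouse, from 31 to 78 cells. Macrophage markers in the same cells summed to 444 and 138 CPM in the vehicle mice and 682 and 614 CPM in the digoxin mice, and mast cell markers to 1.31 and 0 CPM with vehicle and 289 and 2.46 CPM with digoxin. The part of either in the difference was not tested. In Fibroblast 3 of 10 members were higher without overlap (Nfkb1, Nfkbia and Nfkbiz), against 10.1% of genes, and Nfkb2 was lower, against 19.4%.

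In Osteoclast cells, Nfkb1 was 91.2 and 73.6 CPM with vehicle and 113 and 132 CPM with digoxin. The log2 difference was 0.57 (SE 0.18; limma adjusted p 0.781). The subunits p50 and p52 are together needed for osteoclast formation, and the cells carried the osteoclast genes Ctsk and Acp5. Osteoclast markers summed to 26158 and 37297 CPM with vehicle and 22036 and 24558 CPM with digoxin, without overlap, and their part in the difference was not tested. In these cells 3 of 10 members were higher without overlap (Nfkb1, Nfkb2 and Tnfaip3), against 21.6% of genes, and 0 were lower, against 15.8%. In NK cells the order was the other way: Nfkb1 was 220.4 and 220.5 CPM with vehicle and 215 and 202 CPM with digoxin (log2 difference -0.08, SE 0.11, limma adjusted p 0.932). That small difference was -0.034 without digoxin replicate 2 and -0.14 with edgeR. There, 2 of 10 members were lower (Nfkb1 and Icam1), against 16.9% of genes, and 0 were higher, against 19.1%.

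Of the other subunits, Rela, which encodes the activating p65 subunit, stayed between 38.3 and 41.3 CPM in malignant cells of all 4 mice, with overlapping groups. Relb, a partner of the Nfkb2 product p52 in the noncanonical pathway, was 23.6 to 24.3 CPM in the same cells. Rel, which encodes the lymphoid and myeloid subunit c-Rel, was 140.1 and 121 CPM in vehicle macrophages and 148 and 154 CPM in digoxin macrophages. The groups did not overlap, and the log2 difference was 0.21 (SE 0.11; limma adjusted p 0.9996). Without vehicle replicate 2 it was 0.11. Nfkb2 in malignant cells was 41.8 and 38.7 CPM with vehicle and 43.1 and 43.6 CPM with digoxin (log2 difference 0.11, SE 0.08, limma adjusted p 0.9999), and the difference was 0.052 without vehicle replicate 2.

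Cells named Microglia, whose markers went against that name, had both digoxin mice above both vehicle mice for 7 of 10 members, against 16.7% of genes, and below for 0, against 16.2%. The 7 were Nfkb2, Rela, Rel, Relb, Nfkbia, Nfkbiz and Icam1. Relb rested on 12 and 6 UMIs with vehicle and 15 and 7 with digoxin. It read 19.2 CPM in vehicle replicate 1 and 19.8 CPM in digoxin replicate 2. Icam1 rested on 12 to 30 UMIs in a mouse and Rela on 17 to 33. Rel was 119.8 and 146 CPM with vehicle and 149 and 199 CPM with digoxin there (log2 difference 0.38, SE 0.23, limma adjusted p 0.98), and the difference was 0.17 without digoxin replicate 2 and 0.23 without vehicle replicate 1. Icam1 was 27.6 and 34.1 CPM with vehicle and 41.9 and 51.9 CPM with digoxin (log2 difference 0.59, SE 0.36, limma adjusted p 0.98). In both genes the digoxin mice were the higher ones, and neither difference passed the test. Nfkbia was 224 and 158 CPM with vehicle and 235 and 296 CPM with digoxin (log2 difference 0.48, SE 0.22, limma adjusted p 0.98), a difference of 0.20 without marked doublets and 0.24 without vehicle replicate 2. Nfkb2 read 21.1 and 4.77 CPM with vehicle against 23.7 and 35.2 CPM with digoxin, but these values rest on 11, 2, 16 and 11 UMIs, and the log2 difference of 1.40 was 0.44 without vehicle replicate 2. Macrophage markers in these cells summed to 1221 and 507 CPM in the vehicle mice and 1091 and 1583 CPM in the digoxin mice. Of 11 immediate early and dissociation genes tested in them, 4 were higher without overlap and 0 lower, with a summed level of 4920.0 and 3721 CPM with vehicle and 4499 and 5882 CPM with digoxin, and the heat shock gene Hspa1a at 0 and 8.90 CPM with vehicle and 28.5 and 207 CPM with digoxin. The part of either was not tested.

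Nfkbia, the gene of the main inhibitor IkBa, had the largest log2 difference of the 10 members in macrophages. Its level there was 1047 and 765 CPM in the vehicle mice and 1119 and 1301 CPM in the digoxin mice. Both digoxin mice were higher, with digoxin replicate 1 close to vehicle replicate 1. Digoxin minus vehicle was 0.43 (SE 0.17; limma adjusted p 0.9996), and 0.21 without vehicle replicate 2. In Macrophage 4 of 10 members were higher without overlap (Nfkb1, Rel, Nfkbia and Nfkbie), against 13.6% of genes, and 0 were lower, against 17.3%. The members' median log2 difference was 0.17, beside -0.01 over all genes. Nfkb1 in these cells was 143 and 113 CPM with vehicle and 148 and 162 CPM with digoxin (log2 difference 0.29, SE 0.14, limma adjusted p 0.9996), and the difference was 0.12 without vehicle replicate 2.

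The inhibitor genes were also followed in the 3 macrophage sub-clusters. In M1 macrophages, named for an inflammatory state, Nfkbia was 1262 and 905 CPM with vehicle and 1509.6 and 1705 CPM with digoxin. All 4 values were above those of the M2 macrophages of the same mouse, and the groups did not overlap. On the log2 scale the difference was 0.59 (SE 0.17; limma adjusted p 0.507, unadjusted p 0.0119). It was 0.83 with an adjusted p of 0.026 without vehicle replicate 1, and 0.35 with an adjusted p of 0.838 without vehicle replicate 2. In M2 and Highly proliferative M2 macrophages the Nfkbia groups overlapped. In M1, 3 of 10 members were higher without overlap (Nfkb1, Nfkbia and Nfkbie), against 15.3% of genes, and 0 were lower, against 24.0%. Neutrophil markers in M1 cells summed to 70.7 and 69.5 CPM with vehicle and 127 and 95.4 CPM with digoxin, and over all macrophages to 61.5 and 48.3 CPM with vehicle and 92.7 and 69.4 CPM with digoxin. Neither set overlapped, and their part was not tested.

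Nfkbie, the gene of the related inhibitor IkBe, was higher in both digoxin mice in all 3 sub-clusters. In M1 macrophages it was 108 and 94.3 CPM with vehicle and 110.0 and 121 CPM with digoxin (log2 difference 0.19, SE 0.11, limma adjusted p 0.733), and the difference was 0.094 without vehicle replicate 2. In M2 macrophages it was 50.1 and 49.1 CPM with vehicle and 59.5 and 71.9 CPM with digoxin (log2 difference 0.39, SE 0.16, limma adjusted p 0.9997), and the difference was 0.26 without digoxin replicate 2. In Highly proliferative M2 macrophages it was 85.9 and 66.6 CPM with vehicle and 94.8 and 108 CPM with digoxin (log2 difference 0.41, SE 0.15, limma adjusted p 0.9999). Without vehicle replicate 1 that value was 0.59 with an adjusted p of 0.0287, and without vehicle replicate 2 it was 0.23. Rel in M2 macrophages was 87.6 and 90.1 CPM with vehicle and 105 and 115 CPM with digoxin (log2 difference 0.30, SE 0.14, limma adjusted p 0.9997), so this subunit and the inhibitor both had the digoxin mice above the vehicle mice there. Over all macrophages Nfkbie was 81.9 and 63.8 CPM with vehicle and 87.5 and 97.9 CPM with digoxin (log2 difference 0.35, SE 0.15, limma adjusted p 0.9996). Without vehicle replicate 2 that difference was 0.17. In M2, 4 of 10 members were higher without overlap (Nfkb1, Nfkb2, Rel and Nfkbie), against 15.0% of genes, and 0 were lower, against 11.7%. In Highly proliferative M2, 3 were higher (Rel, Relb and Nfkbie), against 17.4%, and 0 were lower, against 12.6%.

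The macrophages of vehicle replicate 2 also held another mix of sub-clusters. M1 cells made up 45.3, 29.0, 47.6 and 42.5% of the macrophages in vehicle replicates 1 and 2 and digoxin replicates 1 and 2. With the 3 sub-clusters weighted equally in each mouse, the log2 difference over macrophages was 0.32 for Nfkbia, 0.31 for Nfkbie, 0.21 for Nfkb1 and 0.13 for Rel. With the cells as they were, these values were 0.43, 0.35, 0.29 and 0.21. None passed the limma threshold. Each sub-cluster had a positive difference for all 4 genes, so equal weights could hardly change a sign. The summed level of 12 immediate early and dissociation genes was 10383 and 10486 CPM in vehicle macrophages and 9998 and 8049 CPM in digoxin macrophages. In malignant cells it was 12257 and 13684 CPM with vehicle and 12290 and 10191 CPM with digoxin. Without overlap, 0 of the 12 genes were higher and 4 lower in macrophages, beside 13.6% and 17.3% of all genes. In M1 macrophages 2 were higher and 4 lower, beside 15.3% and 24.0%, and in M2 0 and 4, beside 15.0% and 11.7%. In malignant cells 1 was higher and 5 lower, beside 12.8% and 16.5%. The part of these genes in the differences of the members was not tested.

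**Figure D2:**
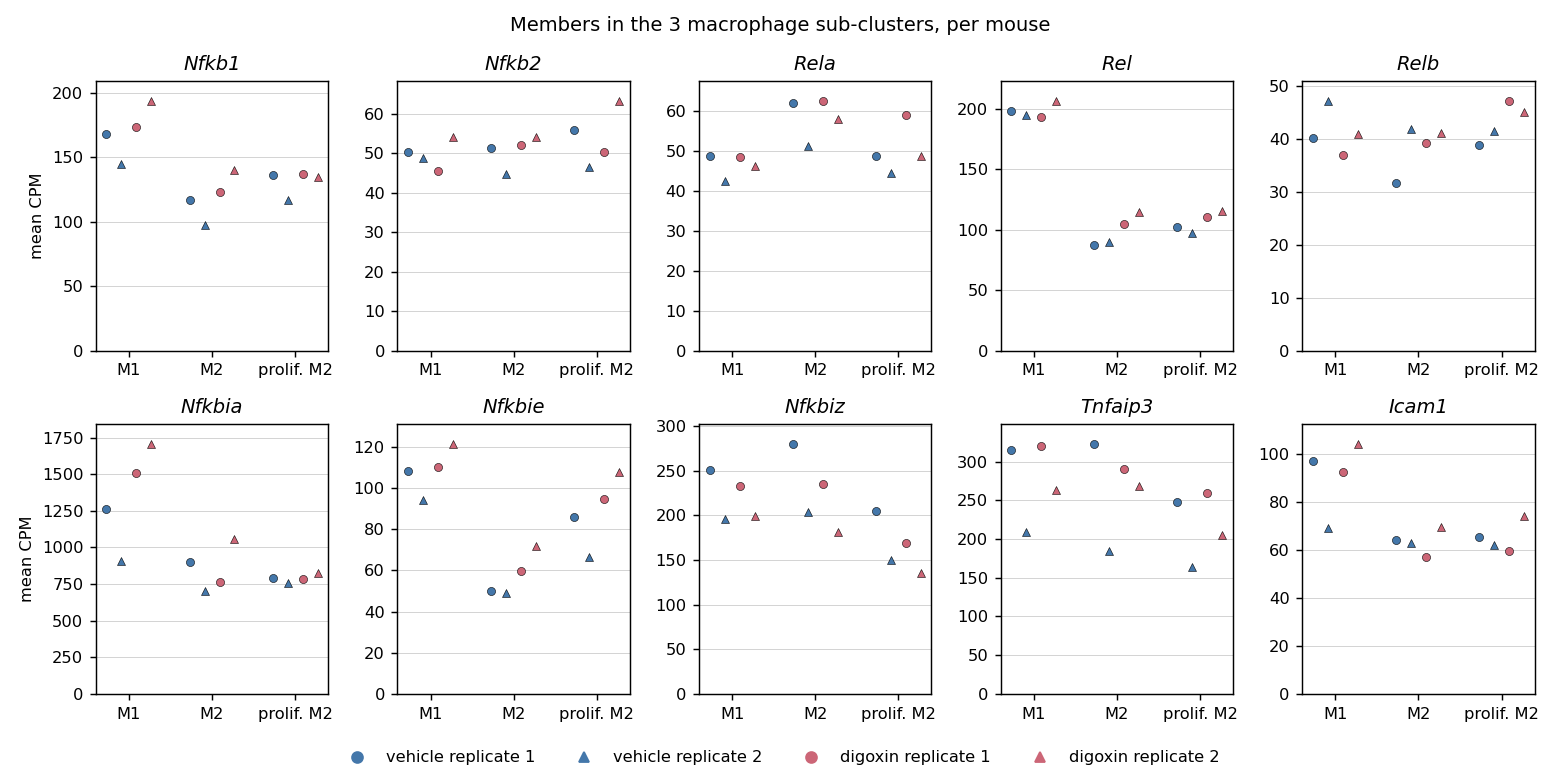
Mean CPM (y axis) of each member in M1, M2 and Highly proliferative M2 macrophages (x axis) in each of the 4 mice. Nfkbia in M1 runs from 905 to 1705 CPM with both digoxin mice on top, and Rel is higher in M1 than in M2 in each mouse.

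Within a mouse, M1 macrophages held more of 5 members than M2 macrophages in 4 of 4 mice. The mean ratio over the mice was 2.02 for Rel, 1.90 for Nfkbie, 1.57 for Nfkbia, and 1.43 for both Nfkb1 and Icam1. Rela ran the other way, at 0.80 of the M2 level and lower in M1 in each mouse. Nfkb2, Relb and Tnfaip3 were higher in M1 in 2 of 4 mice and Nfkbiz in 1 of 4. The sub-clusters were made from the expression of these cells, so the ratios are a description.

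Nfkbiz was the 1 member whose malignant cells were lower in both digoxin mice: 177 and 181 CPM with vehicle against 166 and 139 CPM with digoxin. The log2 difference was -0.24 (SE 0.10; limma adjusted p 0.9999), and it was -0.11 without digoxin replicate 2 and -0.37 without digoxin replicate 1. In Epithelial, Fibroblast and Microglia the digoxin mice were the higher ones, though in Epithelial the difference of 0.43 was 0.01 without the cells that held mast cell markers. Fibroblast cells held it at 215 and 200.04 CPM with vehicle and 256 and 246 CPM with digoxin (log2 difference 0.27, SE 0.20, limma adjusted p 0.999; 0.16 with limma on summed UMIs), and cells named Microglia at 76.1 and 69.5 CPM with vehicle and 113 and 98.2 CPM with digoxin (log2 difference 0.53, SE 0.26, limma adjusted p 0.98). In macrophages the groups overlapped, at 255 and 196 CPM with vehicle and 227 and 183 CPM with digoxin.

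Icam1, a target gene whose product binds leukocyte integrins, was low in malignant cells: 6.45 and 3.66 CPM with vehicle and 6.67 and 8.59 CPM with digoxin. Vehicle replicate 2 was lowest and the other vehicle mouse lay next to digoxin replicate 1. Digoxin minus vehicle was 0.54 (SE 0.25; limma adjusted p 0.9999), and it was 0.20 without vehicle replicate 2, 0.88 without vehicle replicate 1 and 0.23 with a pseudocount of 10. T cells had the opposite order, at 88.1 and 99.6 CPM with vehicle and 86.6 and 80.0 CPM with digoxin (log2 difference -0.17, SE 0.18, limma adjusted p 0.979), and the difference was -0.082 without vehicle replicate 2. Nfkbie in T cells was 34.3 and 41.8 CPM with vehicle and 50.9 and 44.4 CPM with digoxin (log2 difference 0.32, SE 0.23, limma adjusted p 0.979), with 0.18 without vehicle replicate 1. In NK cells Icam1 was 75.4 and 68.4 CPM with vehicle and 58.0 and 66.8 CPM with digoxin (log2 difference -0.20, SE 0.17, limma adjusted p 0.857), with -0.10 without digoxin replicate 1. In T cells 2 of 10 members were higher without overlap (Rela and Nfkbie), against 14.3% of genes, and 1 was lower (Icam1), against 19.0%. Neutrophil markers in T cells summed to 6.10 and 20.8 CPM with vehicle and 44.2 and 160.1 CPM with digoxin, without overlap, and their part was not tested.

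Tnfaip3 rose in cells named Epithelial under limma. Its level was 29.2 and 34.8 CPM in the vehicle mice and 87.5 and 133 CPM in the digoxin mice (32.0 ± 3.96 against 110.4 ± 32.3, mean ± SD, n = 2 each), from 73, 72, 134 and 149 UMIs. Both digoxin values lay well above both vehicle values, with a ratio of 3.45 between the group means. On the log2 scale the difference was 1.73 (SE 0.23; limma adjusted p 0.00855), and with no filter on low counts limma did not call it. The call was lost without digoxin replicate 2 (1.43, adjusted p 0.291) and with the UMIs of all cells summed, where edgeR gave 0.97 (adjusted p 0.37), DESeq2 0.97 (adjusted p 0.699) and limma 0.96 (adjusted p 0.38). In Epithelial 4 of 10 members were higher without overlap (Rela, Nfkbia, Nfkbiz and Tnfaip3), against 17.8% of genes, and 0 were lower, against 16.3%. The 12 immediate early and dissociation genes had 5 higher without overlap and 0 lower in the same cells, at a summed 7142 and 5973 CPM with vehicle and 6847 and 8675 CPM with digoxin, and their part was not tested.

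Some of these cells held markers of mast cells, a cell type with no name of its own in the deposited table. Among the 347 cells named Epithelial, 12 held at least 3 of 5 mast cell markers (Cpa3, Mcpt4, Cma1, Kit and Tpsb2), while 0 of 579 T cells did. These were 0 and 1 cells in the vehicle mice and 5 and 6 cells in the digoxin mice. No other type was searched for such cells. Summed mast cell markers were 1214 CPM in the cells named Unknown, all of vehicle replicate 2, and 289 CPM in Fibroblast cells of digoxin replicate 1. The 12 cells held 92 of the 428 Tnfaip3 UMIs, and the summed mast cell markers over all cells named Epithelial were 59.4 and 260 CPM with vehicle and 4709 and 5304 CPM with digoxin. Their Tnfaip3 level was 432 CPM in the 1 vehicle cell and 618 and 1379 CPM in the digoxin mice. Macrophage markers summed to 21970 CPM in the 1 vehicle cell, above its mast cell markers at 17645.5 CPM. In the marked cells of the digoxin mice they summed to 232 and 6386 CPM, beside mast cell markers at 77169 and 75450.5 CPM. Whether the 12 are mast cells alone was not tested. Without the 12 cells, Tnfaip3 was 29.2 and 30.7 CPM with vehicle and 53.6 and 39.8 CPM with digoxin. The digoxin mice were still higher, with a log2 difference of 0.61 that did not pass the test (limma adjusted p 0.997). Macrophage markers in the cells named Epithelial summed to 415 and 842 CPM with vehicle and 1013 and 1162 CPM with digoxin, and their part was not tested.

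Leaving out the same cells also changed the other members there. Nfkbia had been 624 and 702 CPM with vehicle and 716 and 956 CPM with digoxin, and its groups then overlapped. Nfkbiz had been 142 and 110.1 CPM with vehicle and 155 and 183 CPM with digoxin, with a log2 difference of 0.43 (limma adjusted p 0.751) that became 0.01 without the marked cells, and 0.24 without vehicle replicate 2. Rela, Relb and Tnfaip3 then had non-overlapping higher groups, 3 of 10 against 17.8% of genes in these cells, and Nfkb1 a lower one, 1 of 10 against 14.5%. In the marked digoxin cells Nfkbia stood at 2140.0 and 2197 CPM and Nfkbiz at 522 and 1053 CPM.

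**Figure D3:**
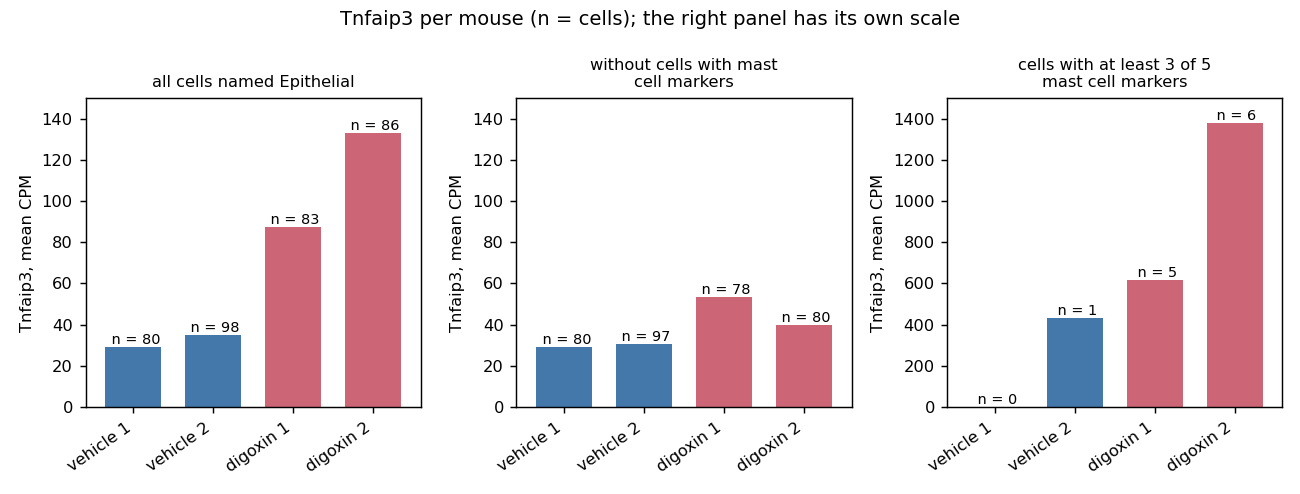
Tnfaip3 mean CPM (y axis) per mouse in all cells named Epithelial, in those without the mast cell markers, and in the 12 cells with at least 3 of them (own scale), with the number of cells above each bar. Bars of the digoxin mice drop from 87.5 and 133 CPM to 53.6 and 39.8 CPM without the marked cells.

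Tnfaip3 passed the test in none of the other 10 populations. In malignant cells it was 30.4 and 25.3 CPM with vehicle and 25.6 and 29.7 CPM with digoxin, with overlapping groups. In macrophages it was 308 and 190 CPM with vehicle and 301 and 257 CPM with digoxin, where vehicle replicate 2 was the lowest. Fibroblast cells held 108 and 24.6 CPM with vehicle and 77.0 and 124 CPM with digoxin, also overlapping, and again with vehicle replicate 2 the lowest. Osteoclast cells read 27.0 and 36.1 CPM with vehicle and 59.1 and 41.1 CPM with digoxin (log2 difference 0.64, SE 0.26, limma adjusted p 0.781), with 0.36 under edgeR and 0.39 without digoxin replicate 1.

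Whether the treatment difference itself differed between compartments was tested within mice. For Macrophage minus malignant cells, 0 of 10 members passed (0% of 13532 genes), and for all non-malignant minus malignant cells 0 of 10 passed (0% of 14445 genes). At an unadjusted limma p under 0.05, 1 of 10 members passed in each, against 4.62% and 4.40% of genes. That member was Nfkbia, whose log2 difference was larger in macrophages than in malignant cells by 0.37 (SE 0.13; p 0.0284, limma adjusted p 0.999) and larger in non-malignant cells by 0.33 (SE 0.12; p 0.0301, limma adjusted p 0.979). Macrophages were most of the non-malignant cells in each mouse, and both comparisons use the same malignant values. The comparisons are therefore not separate results. In malignant cells Nfkbia was 681 and 559.9 CPM with vehicle and 563 and 739.8 CPM with digoxin, with overlapping groups.

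Across malignant cells and the 7 types tested, the 80 pairs of member and type had both digoxin mice above both vehicle mice in 27 pairs and below in 5, with overlap in 48. Over all genes tested in these 8 populations the shares were 15.2% higher and 17.2% lower. Over the 11 populations the members' median log2 difference ran from -0.11 in NK to 0.34 in Fibroblast, beside medians over all genes of -0.04 to 0.03. The lowest and highest values were not spread evenly over the mice. Vehicle replicate 2 had the lowest of the 4 values in 36 of 80 pairs (45%, beside 31.4% of all gene and type pairs), and digoxin replicate 2 the highest in 37 (46.25%, beside 25.1%). Vehicle replicate 1 was lowest in 22 (27.5%, beside 20.8%) and digoxin replicate 1 in 9 (11.25%, beside 18.9%). The 80 pairs come from the same 4 mice and are not separate observations. Vehicle replicate 2 also differed from the digoxin mice in Xist and Ddx3y. With it as the only control, treatment and that host difference cannot be told apart. Without vehicle replicate 1, so with vehicle replicate 2 as the only control, limma called 8 pairs: Nfkbia in M1, Nfkbie in Highly proliferative M2, Nfkbiz, Tnfaip3 and Icam1 in Epithelial, and Nfkb1, Tnfaip3 and Icam1 in Fibroblast. In that setting limma called 1.77% of all genes in M1, 2.18% in Highly proliferative M2, 3.20% in Epithelial and 4.69% in Fibroblast. Without vehicle replicate 2 it called 1, Tnfaip3 in Epithelial.

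The level of each member across cell types is a description, as the types were made from the same expression values, and levels are compared within a gene only. The order is over the 11 types present in all 4 mice, and "apart" means that a type's range over the mice did not meet that of the next type by mean. The 30 cells named Unknown came from vehicle replicate 2 alone and are left out of the order. Their single values were lower than any type's mean for 7 members: 80.6 CPM for Nfkb1, 5.59 for Rel, 9.12 for Relb, 145 for Nfkbia, 2.70 for Nfkbie, 8.48 for Tnfaip3 and 1.22 for Icam1. Dendritic cells, with 10 to 21 cells in a mouse and Ccr7 at a mean of 3021 CPM, came first for 7 members. Rel, the subunit tied to dendritic and lymphoid cells, stood there at 1029 ± 155 CPM (mean ± SD over 4 mice), followed by B cells (4 to 18 cells in a mouse) at 493 ± 116 CPM. Both ranges were apart from the next in order. Summed macrophage markers in B cells exceeded B cell markers in vehicle replicate 2 (9986 against 2783 CPM) and digoxin replicate 1 (3201 against 1229 CPM). They were lower in vehicle replicate 1 (1771 against 2870 CPM) and digoxin replicate 2 (1868 against 2596 CPM). Relb, long known as a gene of mature dendritic cells, was 625 ± 51.7 CPM in Dendritic cells and at most 52.2 CPM on average elsewhere. Nfkb2 (231 ± 14.4 CPM), Rela (94.1 ± 26.5 CPM) and Icam1 (227 ± 59.5 CPM) were also highest there with ranges apart from the next type. Nfkb1 (503 ± 160.0 CPM) and Nfkbie (114 ± 37.2 CPM) were highest there with ranges that met the next.

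Neutrophil cells came first for Nfkbia (2176 ± 620 CPM), Nfkbiz (420 ± 244 CPM) and Tnfaip3 (402 ± 243 CPM), from 5 to 34 cells in a mouse, and none of these ranges was apart from the next. In vehicle replicate 2 these cells held macrophage markers at a summed 13881 CPM against 8274 CPM for neutrophil markers. In the other mice neutrophil markers were higher, at 25371 to 123238 CPM beside 12828 to 18457 CPM. T cells followed for Tnfaip3 at 351 ± 34.6 CPM and were only just apart from macrophages at 264 ± 54.3 CPM. Malignant cells had the lowest mean of the 11 types for 3 genes. Their Nfkbie was 5.24 ± 0.53 CPM against 17.6 ± 2.11 CPM in the next lowest, cells named Epithelial, and their Icam1 was 6.34 ± 2.03 CPM against 12.7 ± 6.48 CPM in Osteoclast cells. In both cases the ranges were apart, for Icam1 only just, although B cells of vehicle replicate 2 read 0 for Nfkbie. Malignant Tnfaip3, at 27.8 ± 2.66 CPM, met the range of Osteoclast cells at 40.8 ± 13.5 CPM. Nfkbia in malignant cells (636 ± 89.3 CPM) and Nfkb1 (214 ± 55.6 CPM) lay within the ranges of several other types. Osteoclast cells were lowest for Nfkbiz (22.1 ± 3.91 CPM, apart) and Nfkb1 (102 ± 25.5 CPM), cells named Microglia for Nfkbia (229 ± 56.5 CPM, apart) and Relb (18.6 ± 2.74 CPM, apart from the next type but within reach of the Osteoclast values), and Fibroblast for Rel (20.1 ± 8.81 CPM).

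**Figure D4:**
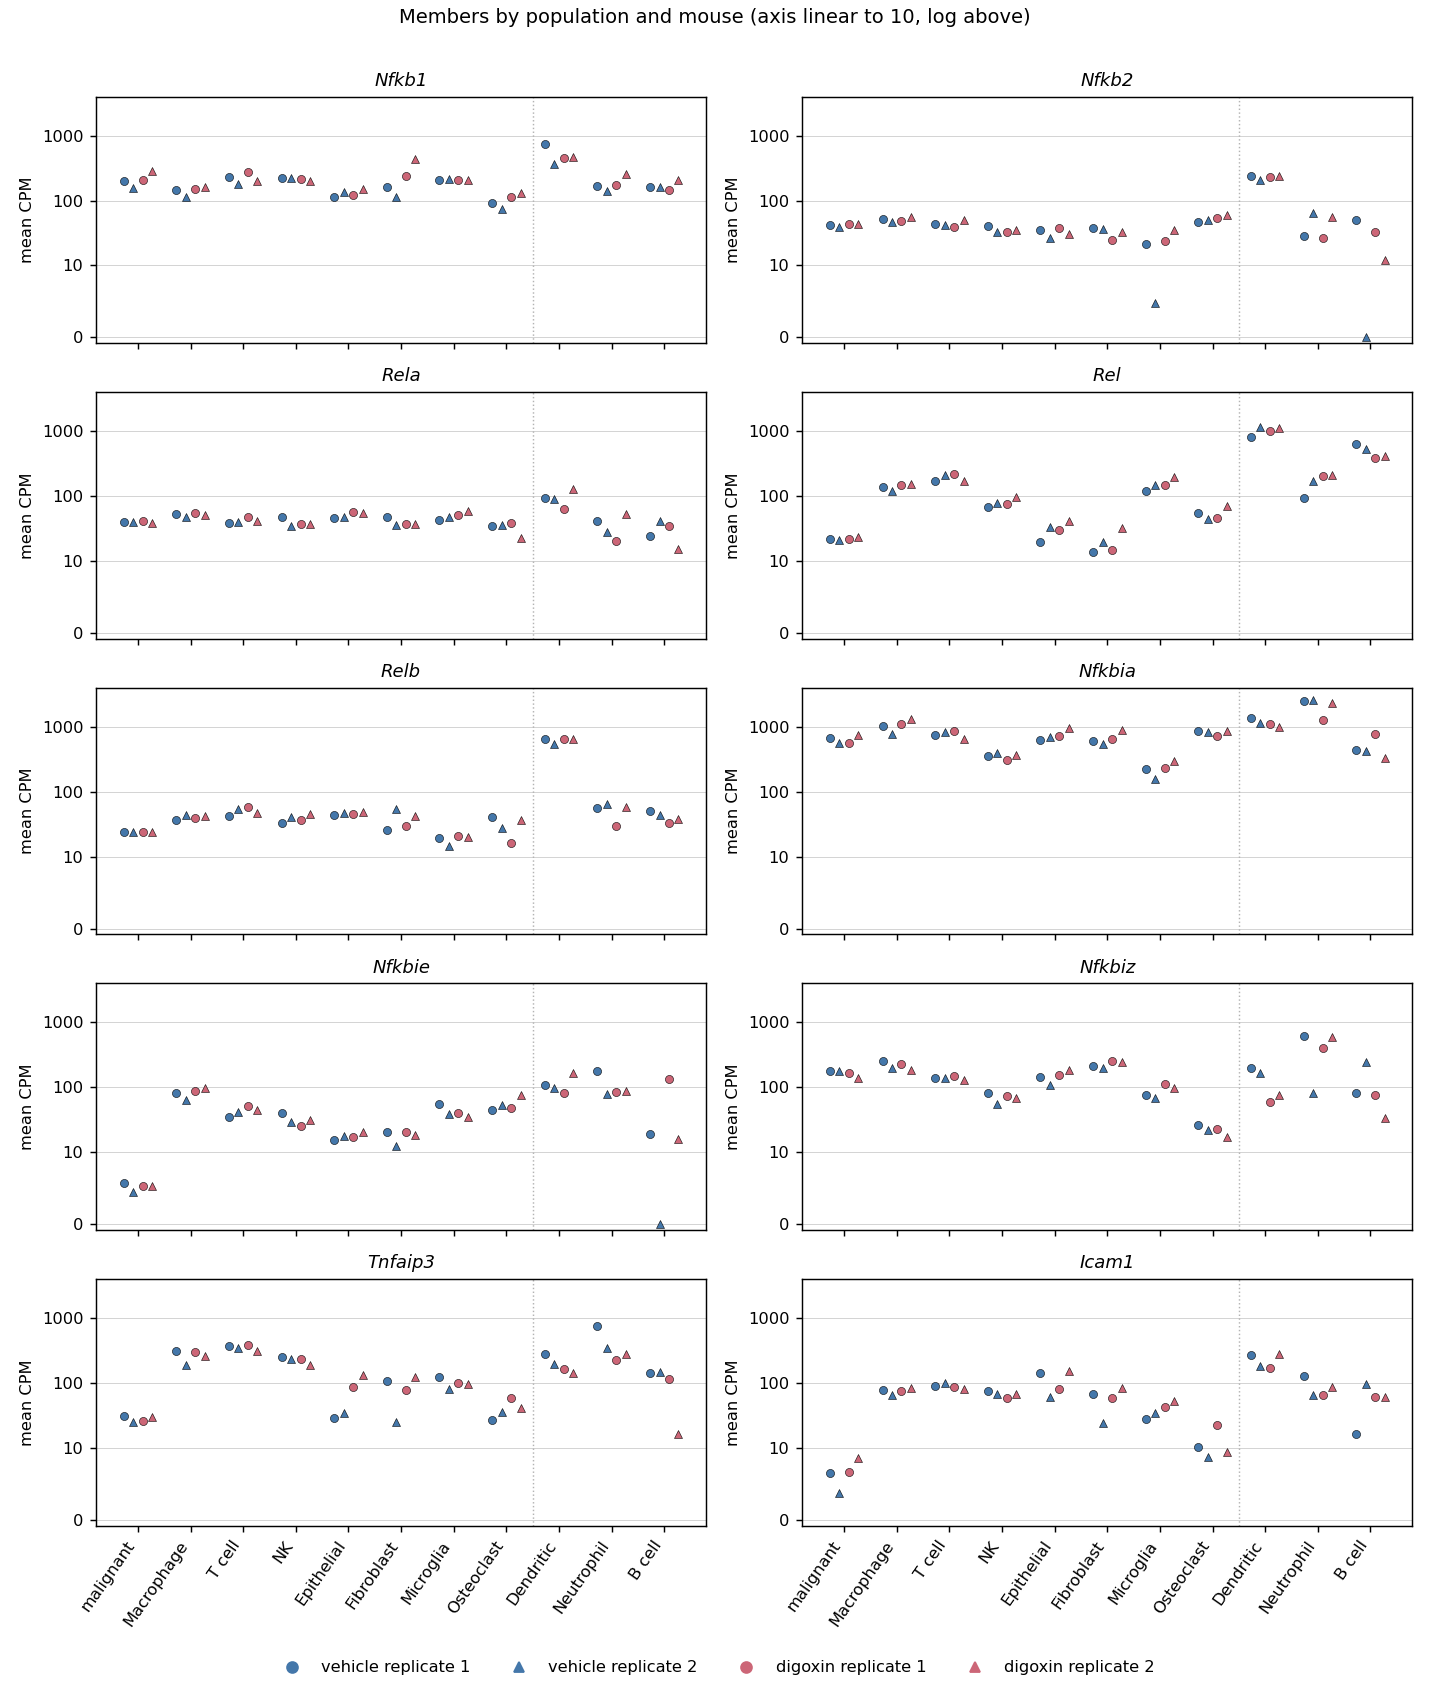
Mean CPM (y axis, linear to 10 and logarithmic above) of each member per mouse in 11 cell populations (x axis). Types right of the dotted line had under 20 cells in some mice, and Relb in Dendritic cells lies far above its level in all other types.

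Genes that feed or read the pathway were counted from 5 lists of 68 ligands, receptors, adaptors and kinases, other inhibitors and target genes. The lists were chosen with earlier results of these data known. Their genes were read in the same 4 mice and are not separate observations, so the shares are a description. In malignant cells 0 of 67 tested were called by limma, edgeR or DESeq2, with 5 higher (7.46%, beside 12.8% of all genes) and 8 lower (11.9%, beside 16.5%) without overlap. The 24 target genes there had 1 higher and 4 lower, and 2 had an unadjusted limma p under 0.05. In macrophages limma and edgeR called 0 of 63 and DESeq2 called 1, with 19 higher (30.2%, beside 13.6% of all genes) and 5 lower (7.94%, beside 17.3%). By role, these were 3 higher and 1 lower of 4 ligands, 3 and 0 of 9 receptors, 4 and 0 of 18 adaptors and kinases, 2 and 0 of 10 other inhibitors, and 7 and 4 of 22 targets, of which 7 had an unadjusted limma p under 0.05. By sub-cluster, 16 of 63 were higher in M1 macrophages (25.4%, beside 15.3% of all genes) and 8 lower (12.7%, beside 24.0%), and DESeq2 called Cxcl2 and Nos2. In M2 macrophages 9 of 60 were higher (15%, beside 15.0%) and 3 lower (5%, beside 11.7%). In Highly proliferative M2 macrophages 10 of 60 were higher (16.7%, beside 17.4%) and 4 lower (6.67%, beside 12.6%).

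Other types also had more of these genes higher than the share over all genes. These were 15 of 59 in T cells (25.4%, beside 14.3%), 15 of 51 in NK cells (29.4%, beside 19.1%), 16 of 58 in Epithelial (27.6%, beside 17.8%) and 10 of 52 in Fibroblast (19.2%, beside 10.1%). In Osteoclast 9 of 44 were higher (20.5%, beside 21.6%) and in Microglia 5 of 34 (14.7%, beside 16.7%). Lower without overlap were 2 in T cells (3.39%, beside 19.0%), 10 in NK cells (19.6%, beside 16.9%), 12 in Epithelial (20.7%, beside 16.3%), 9 in Fibroblast (17.3%, beside 19.4%), 7 in Osteoclast (15.9%, beside 15.8%) and 2 in Microglia (5.88%, beside 16.2%). An unadjusted limma p under 0.05 was found for 3 of 67 list genes in malignant cells, beside 3.41% of all genes there. The counts were 9 of 63 in macrophages (beside 4.04% of all genes), 10 of 63 in M1 (beside 7.73%) and 3 of 60 in M2 (beside 2.28%). They were 5 of 60 in Highly proliferative M2 (beside 3.94%), 10 of 59 in T cells (beside 4.28%) and 14 of 51 in NK (beside 6.28%). In Epithelial 12 of 58 passed (beside 5.77%) and in Fibroblast 8 of 52 (beside 2.97%). In Microglia 1 of 34 passed (beside 4.78%) and in Osteoclast 4 of 44 (beside 6.38%). None of these differences between types was tested.

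At the upper end of the macrophage targets stood Vcam1, which encodes an adhesion molecule, at 36.3 and 21.6 CPM with vehicle and 62.5 and 70.3 CPM with digoxin (log2 difference 1.21, SE 0.23, limma adjusted p 0.9996). It had the same order in M2 macrophages, at 50.9 and 28.0 CPM with vehicle and 105 and 106 CPM with digoxin, and in Highly proliferative M2 macrophages, at 25.8 and 13.1 CPM with vehicle and 67.4 and 59.3 CPM with digoxin. None of these passed with limma or edgeR over all 4 mice. DESeq2 called Vcam1 in all 3 (adjusted p 0.000264, 3.31e-06 and 2.56e-09), but not in M1 macrophages. Without vehicle replicate 1 limma called it in all 3, where it was 1.57, 1.88 and 2.19 higher on the log2 scale (adjusted p 0.0106, 0.000725 and 9.11e-09). Without vehicle replicate 2 the differences were 0.85, 1.04 and 1.26 (limma adjusted p 0.66, 0.172 and 0.000232), and without digoxin replicate 2 limma called it in M2 (1.46, limma adjusted p 0.032). At the lower end stood the chemokine gene Ccl5, at 119 and 121 CPM with vehicle and 53.4 and 95.3 CPM with digoxin (log2 difference -0.74, SE 0.25, limma adjusted p 0.9996), and the difference was -0.33 without digoxin replicate 1 and -1.15 without digoxin replicate 2. In Fibroblast limma and edgeR called 0 of 52 and DESeq2 called 1, Il1b. In Osteoclast all 3 tools called 0 of 44.

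Limma calls over all 4 mice from these lists occurred in NK and Epithelial. In NK cells 2 of 51 rose under limma: the cytokine gene Il1b (7.03 and 10.3 CPM with vehicle, 101 and 55.2 CPM with digoxin; log2 difference 2.99, limma adjusted p 0.000544) and the chemokine gene Cxcl2 (99.9 and 54.1 CPM with vehicle, 347 and 322 CPM with digoxin; log2 difference 2.17, limma adjusted p 0.000544). Without marked doublets neither passed, at 1.85 for Il1b (limma adjusted p 0.32) and 1.32 for Cxcl2 (limma adjusted p 0.851), and DESeq2 did not call Il1b (adjusted p 0.93). With all cells, limma on summed UMIs called the same 2 genes, DESeq2 called Cxcl2 alone, and edgeR called 4, the other two being Cxcl1 and Ier3. Macrophage markers in NK cells summed to 591 and 606 CPM with vehicle and 671 and 1069.5 CPM with digoxin, and neutrophil markers to 5.16 and 2.76 CPM with vehicle and 16.9 and 7.77 CPM with digoxin. Their part was not tested. In cells named Epithelial 2 of 58 rose, both chemokine genes: Ccl2 (77.9 and 122 CPM with vehicle, 348 and 308 CPM with digoxin; log2 difference 1.74, limma adjusted p 0.00508) and Cxcl1 (109 and 108 CPM with vehicle, 179.5 and 199 CPM with digoxin; log2 difference 0.80, limma adjusted p 0.0466). Without the 12 cells that hold mast cell markers, the log2 difference was 0.27 for Ccl2 and 0.85 for Cxcl1, with limma adjusted p of 0.997 and 0.118. Both calls were also lost with no filter (limma adjusted p 0.0531 and 0.122), without digoxin replicate 1 (0.0911 and 0.322), without digoxin replicate 2 (0.155 and 0.857) and on summed UMIs, where edgeR gave 0.47 for Ccl2 (adjusted p 0.78) and 0.67 for Cxcl1 (adjusted p 0.971). DESeq2 called 2 other genes of the lists there, Cxcl2 and Il1b. The Cxcl1 call was lost as well with a pseudocount of 0.1 (limma adjusted p 0.0704) and without marked doublets (0.0646).

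Over the means of the 8 populations with enough cells, the genes whose level followed each member most closely among 9104 were Setbp1 for Nfkb1 (Pearson r 0.978), Snx14 for Nfkb2 (0.966), Slfn4 for Rela (0.957), Susd3 for Rel (0.979), Rtp4 for Relb (0.979), Parp12 for Nfkbia (0.962), Wdr26 for Nfkbie (0.983), Tmf1 for Nfkbiz (0.967), Armc8 for Tnfaip3 (0.975) and Strn for Icam1 (0.959). The 8 points share libraries and differ in depth, and the values are a description.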

How the data were processed

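Tumors of 2 vehicle and 2 digoxin mice were dissociated, red cells were lysed, and libraries were made with droplet reagents for 3′ ends, per the labels' protocols. Cell Ranger 3.0.2, Seurat 3.0.2 and mm10 are named, without roles, per the submitters' processing notes. The authors deposited natural log values, the log of 1 plus a gene's UMIs scaled to 10000 in each cell, together with the UMI count and gene count of each cell. The deposited UMI count turned 100% of values above 0 into whole UMIs (tolerance 0.01), and these were used for sums, CPM and the filter. The rules that kept cells or split malignant from non-malignant cells are not given in the sources used here. 0 columns belonged to no sample. Vehicle replicate 2 is numbered 3 in its cell names, and the cell table assigns it to vehicle replicate 2.

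Per mouse and population, log2(mean CPM + 1) was fitted with limma 3.58.1 (R 4.3.3, variance trend) over genes kept by filterByExpr, and adjusted p under 0.05 was a call. edgeR 4.0.16 and DESeq2 1.42.0 on summed UMIs, pseudocounts of 0.1 and 10, no filter, a replicate block, removal of marked doublets and leaving out each mouse were alternatives. Leaving out mast-marked cells and equal weights for sub-clusters were chosen after seeing the data. The fit was tried on simulated summed UMIs of malignant cells, Macrophage, NK and Osteoclast. Means of per-cell CPM, as used in the main fit, and cells named Epithelial were not simulated. Scrublet in scanpy 1.11.5 marked 1381 of 31611 cells (4.369%) as doublets, which stayed in the main values. B cell, Dendritic, Neutrophil and Unknown cells had under 20 cells in some mouse and were not tested. Members and lists were chosen with earlier results of these data known. All 10 members are reported. Genes of the pathway lists are named if called or at an end of their list at a mean of at least 20 CPM, and genes alike in pattern by Pearson correlation. The mice of a group are separate animals. Counting error is only part of the spread. The rest of the tumor genotype, which both groups share, is not reported here.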

Additional observations from a re-analysis of the deposited data

Results flagged for a closer look

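In some cell types both digoxin mice lay above both vehicle mice for a member, while in another type they lay below. None of these differences between types was tested, and the values are log2 differences, digoxin minus vehicle. Nfkb1 was -0.081 in NK cells, beside 0.48 in malignant cells, 0.29 in Macrophage, 1.28 in Fibroblast and 0.57 in Osteoclast. Nfkb2 was -0.39 in Fibroblast, beside 0.11 in malignant cells, 1.40 in Microglia and 0.22 in Osteoclast. Nfkbiz was -0.24 in malignant cells, beside 0.43 in Epithelial, 0.27 in Fibroblast and 0.53 in Microglia. The Epithelial value was 0.01 without the cells that held mast cell markers, and the groups then overlapped. Icam1 was -0.17 in T cells and -0.20 in NK cells, beside 0.54 in malignant cells and 0.59 in Microglia. Without vehicle replicate 2, Nfkb1 was 0.30 in malignant cells and 0.12 in Macrophage, Nfkb2 0.052 in malignant cells and 0.44 in Microglia, Nfkbiz 0.24 in Epithelial, and Icam1 0.20 in malignant cells and -0.082 in T cells. Nfkb2 in Fibroblast, from 22 to 107 UMIs in a mouse, was -0.20 without digoxin replicate 1, and in Osteoclast 0.13 without digoxin replicate 2.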

How the results depend on the processing

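Of 508 recomputed log2 differences for the 42 pairs of member and population with groups apart, 498 kept their direction and side of the threshold and 0 reversed. This was largely fixed in advance. With groups apart, leaving out a mouse or changing the pseudocount could not reverse a difference, and only Tnfaip3 in Epithelial was called to begin with. The number of members called kept its value in 144 of 154 alternatives, and the number of genes called in 90 of 154. For members in Epithelial, the 1 call became 0 with no filter (Tnfaip3 adjusted p 0.066), edgeR, DESeq2, limma on summed UMIs and without mast-marked cells. Genes called by DESeq2 were 45 in malignant cells, 20 in Macrophage, 42 in M1, 9 in M2, 16 in Highly proliferative M2, 15 in Epithelial, 1 in Fibroblast, 1 in Microglia and 2 in Osteoclast. edgeR called 17 in NK, 0 in Epithelial and 0 in Osteoclast, and limma on summed UMIs 0 in both of the latter. Without marked doublets the counts were 0 in NK, 27 in Epithelial and 4 in Microglia. Epithelial gave 18 with a pseudocount of 0.1, 6 with no filter and 3 without mast-marked cells, against 48, and Microglia gave 2 with a pseudocount of 10. With each mouse left out in turn, genes called ranged from 0 to 5 in malignant cells, 0 to 132 in Macrophage, 0 to 224 in M1, 0 to 50 in M2, 0 to 256 in Highly proliferative M2, 0 to 198 in T cell, 12 to 142 in NK, 3 to 341 in Epithelial, 0 to 462 in Fibroblast, 1 to 72 in Microglia, 0 to 6 in Osteoclast, and 0 to 243 and 0 to 196 in the comparisons of Macrophage and of non-malignant with malignant cells. Members called ranged from 0 to 1 in M1 and Highly proliferative M2 and 0 to 3 in Epithelial and Fibroblast. The lone mouse is then assumed to vary like the other group, and the cause of these shifts was not tested. The replicate numbers name different mice. Same-numbered mice deviated with correlations from -0.3635 in malignant cells to 0.0608 in T cells, so the numbers do not pair them, and with the replicate block the genes called were 57 in T cell, 23 in NK, 85 in Epithelial, 3 in Osteoclast and 2 in the comparison of non-malignant with malignant cells, with no change for the members. Low depth limits the types with few cells, where a member can rest on under 20 UMIs in a mouse.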
